A study of Mus musculus with 79 samples.

Results

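The 8 alpha tubulin genes listed for the mouse (Tuba1a, Tuba1b, Tuba1c, Tuba3a, Tuba3b, Tuba4a, Tuba8 and Tubal3) were taken by their symbols from a table of 25965 genes measured by RNA-seq in the hypothalamus, and all 8 were found. The family was selected on the RNA-seq difference of its members between the genotypes, which was known when it was chosen, so these expression differences are described here without a test, while the histone marks at these genes took no part in the choice. The study compared wild-type mice (+/+) with mice that carry the D329A mutation in the PWWP domain of the DNA methyltransferase DNMT3A on the paternal allele and a deletion of exon 18 on the maternal allele (Δ/D329A), so that the mutant allele is the sole functional copy of Dnmt3a in the animal. The strain was C57BL/6Babr. The deletion was made in the oocyte by Cre driven from the Zp3 promoter, so every tissue carried both alleles. Expression was measured in 5 +/+ and 4 Δ/D329A libraries, and H3K4me3, H3K27me3, H3K36me3 and input chromatin in 3 animals of each genotype, all at about 14 weeks and from whole hypothalamus.

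Alpha tubulin pairs with beta tubulin to form the dimer from which microtubules are built, and a mammal makes several near-identical alpha tubulins from separate genes. Tuba1a is the main alpha tubulin of developing and postmitotic neurons, Tuba1b and Tuba1c are made in many tissues, Tuba4a encodes a protein that lacks the C-terminal tyrosine found in Tuba1a and Tuba1b, Tuba8 is a divergent form known from muscle and testis, and Tuba3a and Tuba3b are forms of the testis. H3K4me3 marks promoters that are active or poised, H3K27me3 is the mark of Polycomb repression, and H3K36me3 lies over the bodies of transcribed genes.

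Tuba1a, Tuba1b and Tuba1c lie close together on chromosome 15 (GRCm38): Tuba1b at chr15:98931425-98934565 and Tuba1a at chr15:98949841-98953551 on the minus strand, and Tuba1c at chr15:99029891-99038105 on the plus strand. The Tuba1c start lies 76340 bp from that of Tuba1a and 95326 bp from that of Tuba1b. Tuba3a, Tuba3b and Tuba8 lie apart on chromosome 6, Tuba4a on chromosome 1 and Tubal3 on chromosome 13. The coding sequences of the trio on chromosome 15 are nearly the same, with 98.3% identity between Tuba1a and Tuba1b, 98.4% between Tuba1b and Tuba1c and 97.6% between Tuba1a and Tuba1c, against 97% between Tuba3a and Tuba3b and 71.6% to 85.4% for the other pairs. The bases before their starts are shown because the chromatin described later differs between these promoters, as the 250 bases before the start on the strand of the gene, 5′ to 3′, with each CpG in capitals. The regions are chr15:98953552-98953801 (minus strand) for Tuba1a, chr15:98934566-98934815 (minus strand) for Tuba1b and chr15:99029641-99029890 (plus strand) for Tuba1c, read from the RefSeq copy of GRCm38.
Tuba1a: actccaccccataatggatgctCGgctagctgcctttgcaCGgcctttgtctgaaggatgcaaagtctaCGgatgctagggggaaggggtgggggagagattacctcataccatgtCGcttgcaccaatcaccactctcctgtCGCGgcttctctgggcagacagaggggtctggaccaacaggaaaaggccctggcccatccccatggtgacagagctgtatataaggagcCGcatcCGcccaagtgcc
Tuba1b: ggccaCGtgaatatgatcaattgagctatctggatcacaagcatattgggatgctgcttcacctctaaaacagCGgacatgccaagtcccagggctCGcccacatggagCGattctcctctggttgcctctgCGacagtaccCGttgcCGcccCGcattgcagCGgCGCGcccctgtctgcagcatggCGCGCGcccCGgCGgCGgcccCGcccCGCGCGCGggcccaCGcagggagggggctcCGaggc
Tuba1c: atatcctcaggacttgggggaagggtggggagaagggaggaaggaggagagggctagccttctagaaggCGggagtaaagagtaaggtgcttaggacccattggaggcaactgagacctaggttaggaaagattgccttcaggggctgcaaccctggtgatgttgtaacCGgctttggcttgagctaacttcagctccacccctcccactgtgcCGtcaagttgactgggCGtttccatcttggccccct
These windows hold 8 CpG in Tuba1a, 24 in Tuba1b and 4 in Tuba1c. Over the RefSeq promoter windows of 300 bases, which reach from 250 before to 50 after the RefSeq start and matched all 8 members, Tuba1b had 39 CpG, Tuba4a 24, Tuba1a and Tuba3b 16 each, Tuba3a and Tuba8 12 each, Tuba1c 7 and Tubal3 3. The median over all 32851 promoters of that table was 7, so Tuba1c sat at the median.

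Near-identity limits how reads can be assigned. Of the windows of 50 bases (the RNA-seq read length) in the annotated exons, 14% occurred once in the genome for Tuba1b, 33.9% for Tuba1a, 45.1% for Tuba1c, 62.1% for Tuba3a and 67.4% for Tuba3b, against 98.6% to 99.8% for Tuba4a, Tuba8 and Tubal3. Of the Tuba1c windows, 22% were also found in Tuba1b and 17.9% in Tuba1a. How RNA-seq reads with several matches were counted is not given in the sources used here, so the split between Tuba1a, Tuba1b and Tuba1c is uncertain to that extent. In +/+, however, Tuba1c reads came to between 0.0386% and 0.17% of the Tuba1a reads of the same library, which bounds how many reads from Tuba1a were assigned to Tuba1c there.

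The 9 RNA-seq libraries held 3874213 to 9977003 reads on genes, which was 33.3% to 54.3% of the reads that the values were scaled to. Xist had at least 2694 reads in every RNA-seq library and 4 genes of the Y chromosome at most 1, whereas the input libraries had 0.415 to 0.429 of the autosomal coverage on the X chromosome and 0.0461 to 0.0488 on Y, so expression was measured in females and the marks in males, and the 2 assays cannot be paired by animal. The list of neuron markers summed to 206 to 386 RPKM (reads per kilobase of transcript, scaled to the total reads) in +/+ and 268 to 361 in Δ/D329A, and that of hypothalamic neurons to 403 to 835 and 465 to 681. Dnmt3a itself differed by -0.28 ± 0.13 (SE) on the log2 scale, with a limma adjusted p of 0.355. A further Δ/D329A library that the study set aside was not analysed here. The numbered samples are biological replicates per the study's methods, and p-values measure the spread between these samples. Fewer cells of a type and less RNA per cell cannot be told apart in these bulk libraries.

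Tuba1a, Tuba4a and Tuba1b supplied nearly all alpha tubulin RNA in both genotypes. Tuba1a had the highest level in all 9 libraries, with 95.9 ± 36.6 RPKM (SD, n = 5) in +/+ and 84.4 ± 8.18 (n = 4) in Δ/D329A. Its +/+ libraries ran from 53.6 to 146 RPKM with a median of 91.6, and the Δ/D329A libraries, at 73.6 to 92.7, lay wholly within that range. Its share of the summed RPKM of all 8 genes was 43.5% to 48.9% in +/+ and 42.7% to 48.1% in Δ/D329A. The difference between the genotypes was -0.10 ± 0.28 (SE of the fit across all genes) in log2 RPKM.

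Tuba4a came second, at 58.1 ± 21.6 RPKM in +/+ (33.9 to 87, median 57.8) and 55.8 ± 8.94 in Δ/D329A (43.7 to 63.9, median 57.8), a log2 difference of 0.01 ± 0.28. Tuba1b followed at 45.5 ± 16.1 RPKM in +/+ (21.5 to 63.7, median 50.5) and 42.9 ± 12.8 in Δ/D329A (26.6 to 57.9, median 43.5), a log2 difference of -0.05 ± 0.32. For both genes the 2 groups of libraries overlapped. The order of Tuba4a and Tuba1b was not firm: Tuba4a was above Tuba1b in 4 of 5 +/+ and 2 of 4 Δ/D329A libraries. Tuba1a was above Tuba4a in all 5 and all 4.

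The spread of these 3 genes among +/+ libraries was smaller when scaled to reads on genes. On that scale (per 1000000 reads on genes) Tuba1a had 442, 328, 419, 322 and 265 reads in +/+ replicates 1 to 5 and 339, 373, 282 and 323 in Δ/D329A replicates 1 to 4. Its coefficient of variation in +/+ was then 20.7%, against 38.2% in RPKM, that of Tuba4a 19.3% against 37.2%, and that of Tuba1b 28.4% against 35.4%. For Tuba1a and Tuba4a the highest +/+ library on both scales was replicate 1 and the lowest replicate 5, which had the highest and the lowest share of reads on genes, 54.3% and 33.3%. Tuba1b was also lowest in replicate 5 on both scales, but per reads on genes it was highest in replicate 4 (261, against 220 in replicate 1).

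Tuba8 was expressed far lower. It had 51, 28, 31, 24 and 28 reads in the +/+ libraries and 45, 18, 17 and 20 in the Δ/D329A libraries, or 0.907 ± 0.231 and 0.883 ± 0.347 RPKM. The libraries of the 2 genotypes overlapped, with a log2 difference of -0.08 ± 0.28. Tuba3a had 1 read in all 9 libraries (Δ/D329A replicate 2), Tuba3b had 1 (Δ/D329A replicate 4) and Tubal3 had 0. Their 0 reads over the 5 +/+ libraries allow a level of up to 0.0249 RPKM for Tuba3a, 0.0212 for Tuba3b and 0.0122 for Tubal3, taking 3 reads over the group as the limit, which covers counting error only. These testis and divergent forms were not detectable in +/+ at this depth, and they were too low for the fit across all genes, which took 5 of the 8 members (at least 0.1 RPKM in 4 or more libraries). Of these 5, Tuba1c reached 0.1 RPKM in 2 +/+ libraries and passed through its 4 Δ/D329A libraries.

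Tuba1c stood apart. It had 6, 4, 1, 3 and 1 reads in +/+ replicates 1 to 5, and 143, 16, 112 and 99 reads in Δ/D329A replicates 1 to 4. No Δ/D329A library overlapped the +/+ range, as for 3% of all genes compared. The level was 0.092 ± 0.0582 RPKM in +/+, with 0.03 as the lowest and 0.165 as the highest, and 3.62 ± 1.92 RPKM in Δ/D329A, with 0.769 as the lowest and 4.94 as the highest. The ratio of the mean levels was 39.3 and that of the lowest Δ/D329A to the highest +/+ library 4.66. In log2 RPKM the difference was 5.28 ± 0.66 (SE), and 5.93 without Δ/D329A replicate 2. That library had the lowest Tuba1c level of its group, 6.42-fold under the highest, and also the fewest reads on genes of all 9. With 1 RPKM added to every level before the logarithm, which damps low values, the difference was 1.94. Because the members were selected on this contrast, no call is given for Tuba1c. Over all 17839 genes tested, 0.107% were called at a limma adjusted p under 0.01, and nothing is read from these shares for the members.

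Tuba1c held a different place in the order of the members in the 2 genotypes. In +/+ it lay under Tuba8 in all 5 libraries, and in Δ/D329A above Tuba8 in 3 of 4, at the same level after rounding in replicate 2 (0.769 RPKM each, from 16 reads of Tuba1c and 18 of Tuba8), and under Tuba1b in all 4. Its share of summed alpha tubulin RPKM was 0.0156% to 0.0685% in +/+ and 0.444% to 2.57% in Δ/D329A. The summed RPKM of the 8 genes was 110 to 298 in +/+ and 166 to 206 in Δ/D329A, so the groups overlapped.

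**Figure D1:**
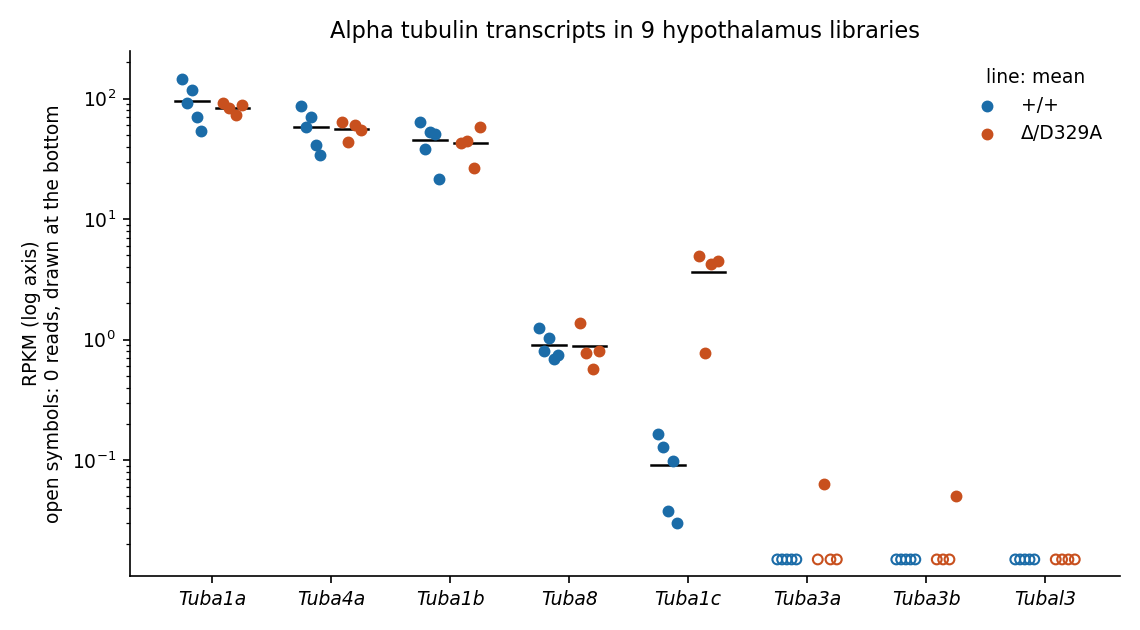
Levels of the 8 alpha tubulin genes in RPKM on a log axis, 1 point per library (5 +/+, 4 Δ/D329A), with a line at the mean; libraries without a read are open symbols at the bottom of the axis. The Δ/D329A libraries lie above all +/+ libraries for Tuba1c, at 0.769 to 4.94 RPKM, and overlap them for Tuba1a, Tuba4a, Tuba1b and Tuba8.

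The chromatin of the promoters separated the members into 3 kinds. Values are reads scaled to 1000000 uniquely mapped reads (RPM) in tiles of 2000 bp, averaged over the tiles centred from 1500 bp before to 500 bp after the start, and the median over 25899 promoters in +/+ was 5.67 RPM for H3K4me3, 0.484 for H3K27me3 and 0.79 for input. Tuba4a, Tuba1a, Tuba1b and Tuba8 carried strong H3K4me3. Tuba4a had 34.9, 34.4 and 38.9 RPM in +/+ animals 1 to 3 and 26.8, 39.5 and 35.9 in Δ/D329A animals 1 to 3, and its +/+ mean exceeded 97.5% of all promoters. Tuba1a had 21.9, 22 and 26.9 RPM against 17.6, 24.6 and 23.7, and Tuba1b 16.9, 14 and 18.7 against 12.2, 17.6 and 17.5. H3K27me3 at both was under input in all 6 animals, at no more than 0.191 RPM for Tuba1a and 0.27 for Tuba1b.

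Tuba8 combined strong H3K4me3 with a little H3K27me3. Its H3K4me3 was 16.8, 13.9 and 16.3 RPM in +/+ and 10.5, 14.6 and 14.3 in Δ/D329A, although its RNA lay far under that of Tuba1b, whose H3K4me3 was similar. Its H3K27me3 was 1.51, 1.29 and 1.51 RPM in +/+ and 1.82, 1.7 and 2.01 in Δ/D329A, between 1.51 and 2.96 times the input of the same animal. The 2 genotypes did not overlap there, as in 14.4% of all promoters tested for H3K27me3, and the log2 difference of 0.34 ± 0.21 had a limma adjusted p of 0.635. In ratio to input the genotypes overlapped, with 2.47, 1.51 and 2.19 in +/+ and 2.96, 1.53 and 2.18 in Δ/D329A. Tuba3a, Tuba3b and Tubal3, which had almost no RNA, had H3K4me3 of no more than 1.3 RPM. H3K27me3 at Tuba3a and Tuba3b was 0.783 to 2.25 times input, and at Tubal3 it was 2.36, 1.5 and 1.64 RPM in +/+ and 1.34, 1.57 and 1.4 in Δ/D329A, or 1.31 to 3.02 times input.

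Both H3K27me3 and H3K4me3 exceeded input in all 6 animals at the promoters of Tuba8 and Tuba1c. Only Tuba1c had both at over 2 times input in all 6, as H3K27me3 at Tuba8 was 1.51 to 2.96 times input. At Tuba1c, H3K27me3 was 4.09, 5.1 and 5.7 RPM in +/+ and 4.03, 4.77 and 4.49 in Δ/D329A, at 3.82 to 13.6 times input, and its +/+ mean exceeded 98.2% of all promoters. H3K4me3 was 3.48, 3.72 and 2.3 RPM in +/+ and 3.61, 2.6 and 2.19 in Δ/D329A, at 2.08 to 5.49 times input, and its +/+ mean exceeded 46.4% of promoters. The genotypes overlapped for both marks. The log2 difference was -0.15 ± 0.15 for H3K27me3 (limma adjusted p = 0.799) and -0.17 ± 0.28 for H3K4me3 (adjusted p = 1). In ratio to input the differences were larger, at -0.68 ± 0.30 for H3K27me3 (limma adjusted p = 0.554) and -0.70 ± 0.36 for H3K4me3 (adjusted p = 0.945). The genotypes overlapped on that scale too. Both ratios divide by the same input, which was 0.986, 0.765 and 0.419 RPM in +/+ and 0.861, 1.25 and 1.04 in Δ/D329A. Both marks at or above the +/+ level of Tuba1c were found at 133 promoters (0.514%), Tuba1c included.

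No mark at a member passed the test of genotype. Of the 24 promoter differences (3 marks at 8 genes), 0 passed an adjusted p under 0.05, where 1.12% of all promoters were called for H3K4me3 (0.206% higher and 0.912% lower in Δ/D329A), 1.07% for H3K27me3 (0.848% higher, 0.219% lower) and 0.0455% for H3K36me3, all higher. The largest log2 difference, -0.77 ± 0.54, was that of H3K4me3 at Tuba3a, which lay under input in every animal. In 3 of the 24 the 2 groups of animals did not overlap, H3K27me3 at Tuba8 and H3K36me3 at Tuba3a and Tuba3b (both under input in every animal), against 6.28% of promoters tested for H3K4me3, 14.4% for H3K27me3 and 11.9% for H3K36me3. At the 4 strong H3K4me3 promoters the lowest of the 6 animals was Δ/D329A animal 1 each time, and that library also had the lowest median over all promoters, 4.08 RPM against 4.91 to 5.94 in the other 5.

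**Figure D2:**
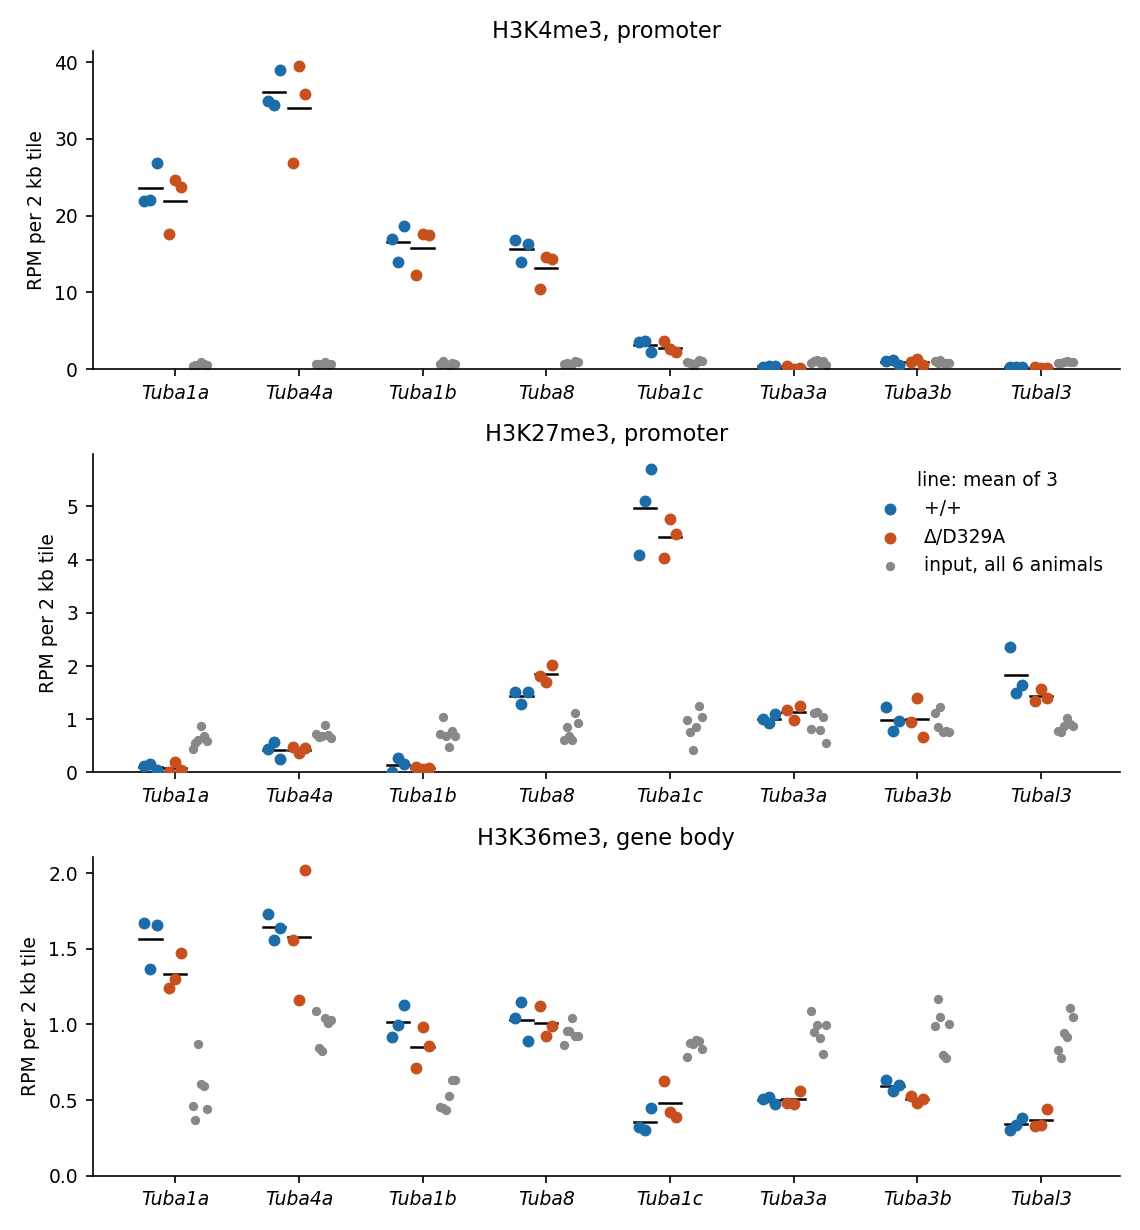
H3K4me3 and H3K27me3 at the promoters and H3K36me3 over the gene bodies of the 8 genes in RPM per 2 kb tile, 1 point per animal (3 +/+, 3 Δ/D329A), with a line at the mean of each genotype and the input of the 6 animals in grey. Tuba1c is the member with the highest H3K27me3, at 4.03 to 5.7 RPM, and Tuba4a that with the highest H3K4me3, at 26.8 to 39.5 RPM.

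Among the members, H3K36me3 over the gene body was highest at Tuba4a and Tuba1a. Taken from 500 bp after the start to the end, it was 1.57 ± 0.169 RPM (SD, n = 3) in +/+ and 1.34 ± 0.118 in Δ/D329A over Tuba1a, 1.64 ± 0.0823 and 1.58 ± 0.433 over Tuba4a, 1.02 ± 0.109 and 0.851 ± 0.135 over Tuba1b, and 1.03 ± 0.131 and 1.01 ± 0.101 over Tuba8. Input over the bodies of Tuba1a and Tuba1b was low, at 0.566 ± 0.266 and 0.445 ± 0.0108 RPM in +/+ against a median of 0.881 over all genes. In ratio to input, H3K36me3 over Tuba1a was 1.91 to 3.71 in +/+ and 2.06 to 3.36 in Δ/D329A. Over Tuba1b it was 2.03, 2.22 and 2.62 in +/+ and 1.35, 1.55 and 1.36 in Δ/D329A, without overlap, as in 17.9% of gene bodies. Input over Tuba1b was itself apart between the genotypes, at 0.453, 0.448 and 0.433 RPM in +/+ and 0.53, 0.632 and 0.63 in Δ/D329A, and H3K36me3 in RPM overlapped there. The ratio was 1.59 to 1.98 and 1.14 to 1.97 over Tuba4a, so Tuba1b lay above Tuba4a in all +/+ animals but not in all Δ/D329A animals, and it was 0.93 to 1.21 and 0.995 to 1.08 over Tuba8. Tuba3a, Tuba3b and Tubal3 lay under input in all animals. In RPM, Tuba3b was the 1 member of 8 whose genotypes did not overlap over the gene body, as in 22.4% of gene bodies, with 0.63, 0.559 and 0.597 in +/+ and 0.526, 0.482 and 0.504 in Δ/D329A (log2 difference -0.20, limma adjusted p = 0.331). In ratio to input its genotypes overlapped.

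Over Tuba1c, H3K36me3 was 0.323, 0.302 and 0.445 RPM in +/+ and 0.627, 0.424 and 0.387 in Δ/D329A, and stayed under input in all 6. The log2 difference was 0.33 ± 0.19 with a limma adjusted p of 0.446, and the groups overlapped. Of the 8 members, 0 passed the threshold for H3K36me3 over the gene body, as did 0 of all 22983 gene bodies tested with limma, of which 3540 had an unadjusted p under 0.05 (0% called). H3K27me3 over the Tuba1c body was 1.9, 2.06 and 1.98 RPM in +/+ and 2.13, 2.21 and 2.36 in Δ/D329A, without overlap, as in 18.5% of gene bodies. An exact permutation test (two-sided) gave p = 0.1, the smallest that 3 against 3 animals allow. In ratio to input the genotypes overlapped there, with 2.43, 2.34 and 2.27 in +/+ and 2.38, 2.47 and 2.81 in Δ/D329A. H3K27me3 over the Tubal3 body also did not overlap, but was lower in Δ/D329A. It was 2.12, 1.61 and 1.55 RPM in +/+ and 1.37, 1.53 and 1.53 in Δ/D329A. In ratio to input Tubal3 did not overlap either, with 2.56, 2.07 and 1.64 in +/+ and 1.49, 1.38 and 1.46 in Δ/D329A. No share of gene bodies was taken for this ratio, and in RPM 18.5% did not overlap, in either direction. The Tubal3 difference was not tested.

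Over the cluster as a whole the marks fell into an active and a Polycomb-marked side. In the 22127 bp from the end of Tuba1b to the start of Tuba1a, H3K4me3 was 8.5 ± 0.798 RPM in +/+ and 7.76 ± 1.81 in Δ/D329A, and H3K27me3 was 0.146 ± 0.0644 and 0.126 ± 0.027. H3K36me3 there was 0.826, 0.778 and 0.83 RPM in +/+ and 0.617, 0.748 and 0.732 in Δ/D329A, without overlap (exact permutation p = 0.1, two-sided, the smallest possible). In ratio to input the genotypes overlapped, with 0.93 to 1.23 in +/+ and 0.896 to 1.11 in Δ/D329A. For H3K36me3 in RPM 22.4% of gene bodies did not overlap, and no such share was taken for segments of this length. Over Tuba1c itself, H3K4me3 was 0.993 ± 0.209 and 1.06 ± 0.402 RPM, and H3K27me3 was 2.38 ± 0.162 and 2.54 ± 0.16. H3K27me3 exceeded input in all 6 animals in a run of 9 tiles, with centres from -3890 to 4110 bp of the Tuba1c start. Within this run it peaked 110 bp after the start, at 4.47, 5.76 and 6.3 RPM in +/+ and 4.5, 5 and 5.48 in Δ/D329A. In the tile at -1890 bp Δ/D329A lay under +/+ without overlap (2.219, 2.598 and 1.828 against 3.524, 2.942 and 3.471 RPM). At 3110 bp it lay above +/+ without overlap (2.824, 3.132 and 3.046 against 2.265, 2.522 and 2.082 RPM). These 2 tiles are named because they did not overlap, and they went in opposite directions. For H3K27me3 in RPM, 14.4% of promoters and 18.5% of gene bodies did not overlap, and no such share was taken for tiles. Single tiles were not tested. H3K4me3 exceeded input in all animals in 2 tiles at the start. Between Tuba1a and Tuba1c lay further H3K4me3 peaks. The highest, at chr15:98984001-98986000, had 29.2, 25.7 and 29 RPM in +/+ and 21.2, 28.5 and 29.7 in Δ/D329A, with its centre 21055 bp from the nearest start of the expression table, that of the gene model Gm8973.

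The mean over the cluster with 5000 bp on either side (chr15:98926425-99043105) was 3.82 ± 0.302 RPM of H3K4me3 in +/+ and 3.62 ± 0.524 in Δ/D329A (exact permutation p = 0.7, two-sided), 0.664 ± 0.00947 and 0.679 ± 0.0502 of H3K27me3 (exact p = 0.8), 0.443 ± 0.00896 and 0.458 ± 0.00818 of H3K36me3 (exact p = 0.2), and 0.788 ± 0.0236 and 0.817 ± 0.0121 of input (exact p = 0.2). The exact tests of 3 against 3 animals cannot go under p = 0.1. The direction of all 3 marks depended on the scaling: divided by the median of each library over promoters, the log2 ratio of Δ/D329A to +/+ was 0.136 for H3K4me3 and -0.228 for H3K36me3, and in ratio to input it was -0.021 for H3K27me3 and -0.003 for H3K36me3.

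**Figure D3:**
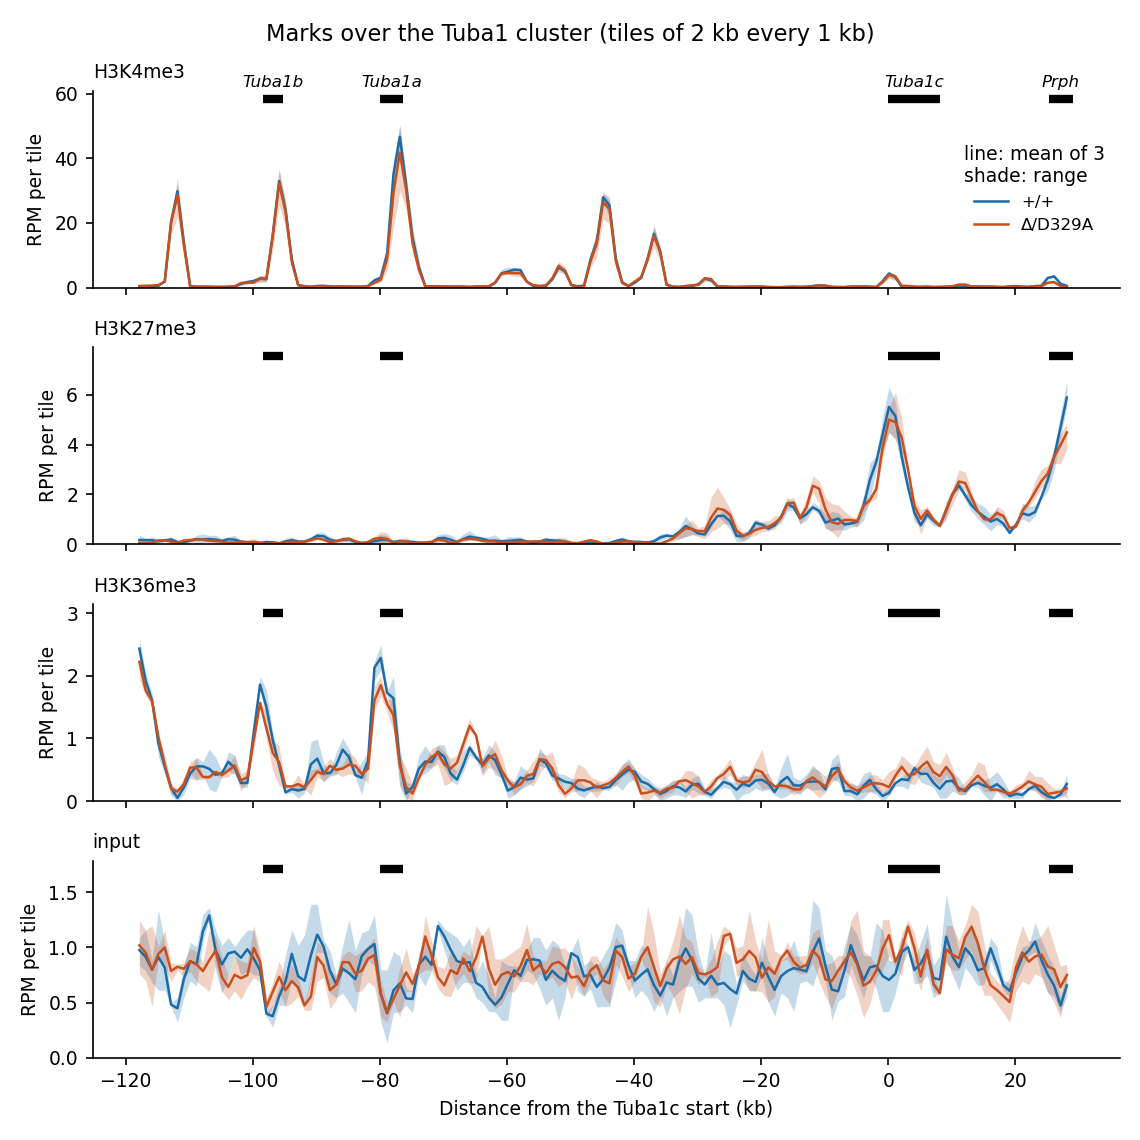
H3K4me3, H3K27me3, H3K36me3 and input in RPM per 2 kb tile against the distance from the Tuba1c start in kb; lines are the mean of 3 animals, shading their range, and black bars the genes. H3K27me3 rises around Tuba1c, to 4.47 to 6.3 RPM in the highest tile at its start, and stays near 0 over Tuba1b and Tuba1a in both genotypes.

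No neighbour of the cluster was called. Within 150000 bp of its 3 genes lay 13 genes that are no alpha tubulin, of which 10 were tested and 0 were called in expression by limma (smallest adjusted p = 0.333). Of all genes tested 0.107% were called, so 0 calls among 10 say nothing particular of the neighbours. One of the 10, Gm8973, had no read in any library and passed the limit by its short length alone. Nearest to Tuba1c on the far side, Prph, which encodes the neuronal intermediate filament peripherin, was at 1.43 log2 RPKM in +/+ and 1.13 in Δ/D329A (difference -0.31 ± 0.40, adjusted p = 0.857). Dnajc22, a co-chaperone gene 63279 bp from the Tuba1c start, had 11 reads over the 5 +/+ and 26 over the 4 Δ/D329A libraries, a difference of 2.08 ± 0.58 with an adjusted p of 0.333. C1ql4, which encodes a secreted C1q-like protein, differed by 0.09 ± 0.64 and Spats2 by 0.39 ± 0.18, and Troap, a spindle protein gene, had 0 and 1 reads. Dhh and Wnt1, secreted signals of development on the other side of the cluster, had 5 and 0 reads in +/+ and 7 and 1 in Δ/D329A.

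H3K27me3 at promoters of these neighbours was of the same order as at Tuba1c for Wnt1 (4.95 RPM in +/+, 3.61 in Δ/D329A), Dhh (4.83 and 4.6) and C1ql4 (4.22 and 4.43), and lower for Ddn, Prph and Dnajc22 (2.49, 2.24 and 2 in +/+). Ddn, Prkag1, Mll2, Rhebl1 and Lmbr1l, on the side of Tuba1b, differed in expression by -0.05 to 0.31 on the log2 scale, with adjusted p of 0.616 or more. Of the 16 genes of the window, members included, 0 were called for H3K4me3 or H3K36me3 at the promoter, and 0 of those tested for H3K27me3, which left out Mll2 and Lmbr1l. Over all promoters tested, 1.12% were called for H3K4me3, 1.07% for H3K27me3 and 0.0455% for H3K36me3. With shares this low, 0 calls among so few genes say nothing particular of the window.

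None of the genes listed as partners of alpha tubulin was called by limma. Of 93 genes in 5 lists, 92 were found and 90 tested, and 0 were called higher or lower at an adjusted p under 0.01, where 0.0841% of all genes were called higher and 0.0224% lower. At such shares, 0 calls among 90 say nothing particular of these lists. The median log2 difference over all genes tested, 0.06, includes genes with no read in any library, such as Gm8973 at 0.37. Beta tubulins, the partners in the dimer, had a median log2 difference of 0.10 over the 7 tested, against 0.06 over all genes, and ran from -0.15 to 0.19. The largest were Tubb3, the neuronal form, at 6.37 in +/+ and 6.56 log2 RPKM in Δ/D329A (0.19 ± 0.31, adjusted p = 0.904), and Tubb5, the form made in most cells (0.18 ± 0.29, adjusted p = 0.894). The 12 genes of gamma, delta and epsilon tubulin and of the ring complex that nucleates microtubules had a median of 0.07, with Tubd1 at 0.38 ± 0.25 (adjusted p = 0.558) and Nedd1 at -0.32 ± 0.23 (adjusted p = 0.593). The 23 chaperonin, prefoldin and cofactor genes, which fold tubulin, had a median of 0.04, with the prefoldin subunits Pfdn2 at 0.47 ± 0.17 (adjusted p = 0.355) and H2-Ke2 at 0.31 ± 0.22 (adjusted p = 0.618).

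The 23 tested enzymes that modify tubulin had a median log2 difference of 0.02. The largest values were those of Ttll10, a member of the tubulin ligase family, at -5.12 and -3.45 log2 RPKM (1.66 ± 0.60), and its glycylating relative Ttll8, at -1.67 and -1.12 (0.56 ± 0.27), each with an adjusted p of 0.355. Among 25 microtubule-associated proteins and stathmins the median was 0.06. Dcx, doublecortin of immature neurons, was at 0.80 log2 RPKM in +/+ and -0.03 in Δ/D329A (-0.83 ± 0.15, adjusted p = 0.0758), and its relative Dclk1 at 4.16 and 3.66 (-0.50 ± 0.16, adjusted p = 0.355). Neither passed in limma, whereas on the recovered reads Dclk1 was called lower by edgeR (adjusted p = 0.00645) and Dcx, Dclk1 and Mapre1 by DESeq2.

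**Figure D4:**
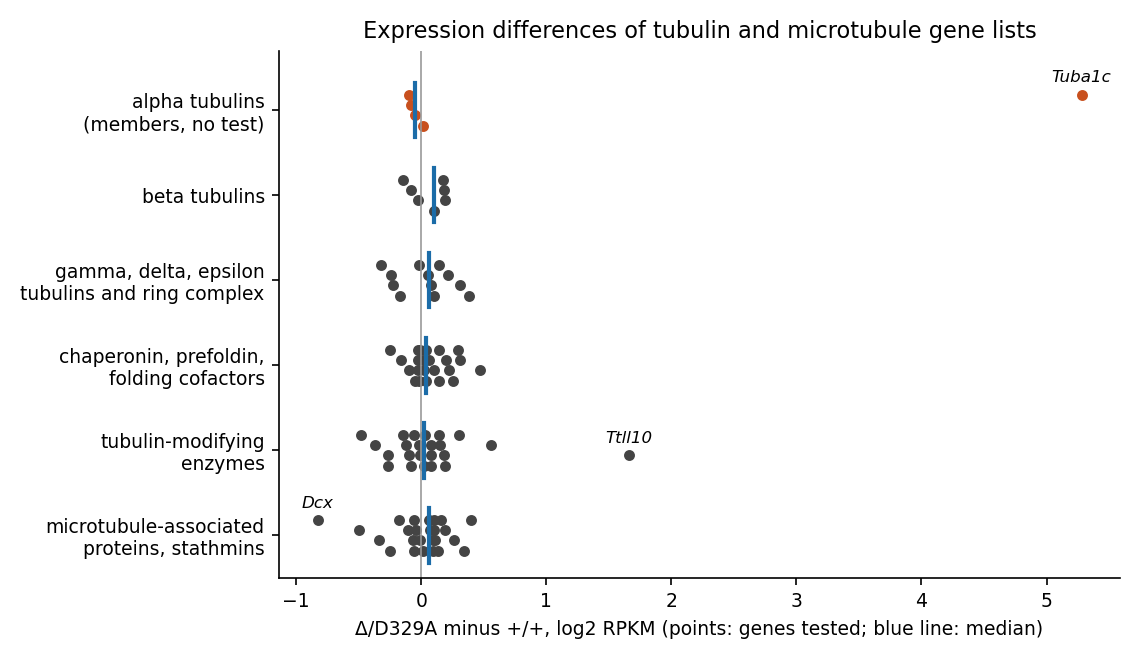
Difference in log2 RPKM between Δ/D329A and +/+ for the 5 members tested and the tested genes of 5 lists, 1 point per gene, with the median of each group as a line. Tuba1c, at 5.28, lies apart from the other members, which lie between -0.10 and 0.01, and from all genes of the lists, which lie between -0.83 and 1.66.

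The genes whose levels followed Tuba1c most closely over the 9 libraries, among 17792 compared, were Tgm2 (Pearson r = 0.977), Pip5k1b (0.974), Dao (0.968), Mpeg1 (0.963) and Metap1d (0.962). These values describe libraries of 2 genotypes with Tuba1c far apart between them, and each of the 5 had a higher mean in Δ/D329A, by 0.38 (Metap1d) to 2.09 (Dao) in log2 RPKM. Within genotypes r was 0.515 to 0.992 over the 5 +/+ and 0.673 to 0.971 over the 4 Δ/D329A libraries, and all share the depth of the library. Dao encodes D-amino acid oxidase. These 5 genes were chosen for following Tuba1c, which was selected on the genotype contrast, so no test of genotype is given for them.

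For the other members the closest genes, among those with a mean of at least 0 log2 RPKM, were Utp15, Grin3a and AU022252 for Tuba1a (r of 0.972 to 0.974), Serpinb1b, Cdkl1 and Ttc37 for Tuba1b (0.903 to 0.941), Paqr7, Coq2 and Crhr1 for Tuba4a (0.992 to 0.994) and Chml and Oprm1 for Tuba8 (0.93 to 0.932). Among the members, Tuba1a and Tuba4a were most alike (r = 0.904) and Tuba1a and Tuba1b next (0.778). Tuba1c had r of -0.00512 to 0.22 with the other 4. These are descriptions over 9 libraries that share depth and the share of reads on genes.

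Marker lists of other cells were read beside Tuba1c. The 6 markers of cycling cells summed to 0.215 to 0.471 RPKM in +/+ and 0.18 to 0.455 in Δ/D329A. Those of endothelial cells summed to 11.9 to 28.1 and 17.2 to 22.4, those of microglia to 19.7 to 39.9 and 24 to 39.4, and those of ependymal and ciliated cells to 14.5 to 36.7 and 19.8 to 30.1. Those of astrocytes summed to 106 to 155 and 114 to 180, of oligodendrocytes to a median of 343 and 311, of platelets and erythroid cells to 1.31 to 2.32 and 1.94 to 3.07, and of the anterior pituitary to 0.448 to 17 and 3.22 to 11.8. The choroid plexus markers summed to 3.95 to 5.24 in +/+ and to 7.77, 4.62, 8.48 and 4.38 in Δ/D329A replicates 1 to 4. Among them the carrier protein gene Ttr had 7 to 25 reads in +/+ and 66, 27, 65 and 23 in Δ/D329A (log2 difference 1.82, limma adjusted p = 0.187). Of the others, Kcnj13 differed by 1.12 (limma adjusted p = 0.743), with 0, 10, 0, 20 and 12 reads in +/+ and 18, 3, 21 and 3 in Δ/D329A. Folr1 differed by 0.08, Kl by -0.43 and Clic6 by -0.35, and Aqp1 was not tested. The 8 markers of meninges and melanocytes summed to 5.08 to 12.1 in +/+ and to 16.2, 8.45, 14.4 and 9.29 in Δ/D329A replicates 1 to 4, with 1 of them, the melanocyte enzyme Dct, called higher. Dct had 2, 3, 0, 3 and 4 reads in +/+ and 46, 47, 61 and 73 in Δ/D329A replicates 1 to 4 (limma adjusted p = 0.000203), so replicate 2 was not set apart there as it was for Tuba1c. The other melanocyte markers of the list did not follow Dct: Pmel had 3 to 8 reads in +/+ and 0 to 5 in Δ/D329A (log2 difference -1.06, limma adjusted p = 0.355), Tyrp1 had 0 to 6 and 1 to 2, and Mlana had 0 in all libraries. Of the meningeal markers, Slc6a13 had 36 to 113 reads in +/+ and 157, 37, 117 and 36 in Δ/D329A replicates 1 to 4 (log2 difference 0.45, limma adjusted p = 0.793). Col1a2 had 159 to 330 in +/+ and 355, 186, 394 and 151 in Δ/D329A (0.33, limma adjusted p = 0.676), whereas Col1a1 differed by -0.19 and Dcn by -0.12. The genotypes overlapped for Slc6a13, Col1a2 and Kcnj13. The 6 of testis germ cells, 3 of which had no read in any library, summed to 0.286 to 0.543 and to 1.67, 0.284, 1.22 and 0.471. Among them Sycp3, a component of the synaptonemal complex of meiosis, had 0 to 4 reads in +/+ and 22, 2, 13 and 4 in Δ/D329A replicates 1 to 4 (log2 difference 2.79, limma adjusted p = 0.234), lowest in replicate 2 as for Tuba1c. Ddx4 differed by 0.39, Dazl was not tested, and Prm1, Prm2 and Tnp1 had no read. Δ/D329A replicate 2 was the lowest of its group in 10 of 13 marker lists, those of neurons, astrocytes, oligodendrocytes and microglia included, as for Tuba1c, and 36.8% of its reads lay on genes, against 42.9% to 45.1% in the other 3. The part of these cells in the Tuba1c level was not tested.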

How the data were processed

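RNA was extracted with TRIzol, depleted of ribosomal RNA and sequenced as single-end reads of 50 bp, and native chromatin cut with MNase was immunoprecipitated from the same animal for all 3 marks and input and sequenced as reads of 75 bp. The authors aligned the reads to GRCm38 and deposited log2 RPKM per gene (merged exons, corrected for length, scaled to total reads by SeqMonk) and, for chromatin, a signal per tile of 2000 bp every 1000 bp scaled to uniquely mapped reads. The submitters' processing notes name Trim Galore 0.4.3, HISAT2 2.0.5 and Bowtie2 2.3.2. The paper's methods name other versions of Trim Galore and HISAT2, and Bowtie rather than Bowtie2 for chromatin. How RNA-seq reads with several matches were counted is not given in the sources used here. Whole reads were recovered from the step of 1 read, within 0.02 reads in all libraries for 25962 of 25965 genes. On these reads edgeR 4.0.16 called 77 genes and DESeq2 1.42.0 called 251, against 19 with limma.

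The main test was limma 3.58.1 (R 4.3.3) with trend on log2 RPKM over genes of at least 0.1 RPKM in 4 or more libraries, mitochondrial genes left out (1711 of 17793 gene symbols compared passed with no read in any library, because a deposited value stands in for 0 reads, and 0 of these were called), and on log2(RPM + 0.1) for marks of at least 0.1 RPM in 3 or more libraries, with Benjamini-Hochberg adjustment over all features and thresholds of 0.01 and 0.05. RPKM is printed with libraries of 0 reads at 0. Promoters were the tiles centred from 1500 bp before to 500 bp after the start. Single regions were compared by two-sided exact permutation tests. Sequences came from RefSeq's GRCm38, whose chromosome lengths match the last tiles. The scripts were tested on simulated data.

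The members, gene lists and tests were chosen with earlier results of these data known. Genes named are the 8 members, all genes within 150000 bp of the cluster, those called or the 2 with the largest difference of each pathway list, and the 3 (Tuba1c: 5) most alike each member, of which 1 is not reported here. Marker genes were named where their list moved with a result, which was judged after their values were seen, and Mapre1 because 1 tool called it. Alternatives were other tools, scalings, pseudocounts, filters, windows, input ratios, blocks and leaving out each replicate.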

Additional observations from a re-analysis of the deposited data

Results flagged for a closer look

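In the Δ/D329A group of 4 libraries, the log2 RPKM of Tuba1c in replicate 2 lay far under the other 3. The gap from it to the nearest other library, divided by the range of the group, was 0.921. Of 10 groups looked at (5 members in 2 genotypes), this was the 1 past Dixon's limit, which chance passes in about 1 of 20 groups. The limit describes the spread within a group, and says nothing of the genotypes, on whose difference the members were selected. That library had 16 Tuba1c reads, against 99 to 143 in the other 3, and 3874213 reads on genes, against 4997554 to 6598977. Per 1000000 reads on genes it had 4.13, against 19.6 to 21.7.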

How the results depend on the processing

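Tuba1c rested on 15 reads in +/+, so its fold difference is imprecise, and 3 animals per genotype limit the marks. Its log2 difference was positive under all 18 alternatives, 1.94 with 1 RPKM added and 4.05 with 0.1 RPKM added, and otherwise 4.95 to 5.93. Those of the other members changed sign: Tuba1a -0.29 to 0.07, Tuba1b -0.29 to 0.16, Tuba4a -0.16 to 0.18, Tuba8 -0.32 to 0.10. No mark at a member passed the threshold under any alternative (420 values, smallest adjusted p = 0.211), and 381 kept their direction. The cause of the changes below was not tested.

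Genes called in expression (19) were 251 with DESeq2, 77 with edgeR, 11 at a limit of 0.5 RPKM, 34 with median centring (22 higher and 12 lower, against 15 and 4), 32 with quantile normalization (16 and 16), and 11 (without Δ/D329A replicate 4) to 18 without each replicate. The DESeq2 calls were 133 higher and 118 lower and those of edgeR 40 and 37. Promoters called for H3K4me3 (261) were 80 with edgeR, 83 with median centring, 522 with a block for animals of high and low mitochondrial coverage, 149 in ratio to input, 0 with no filter (900 at an unadjusted p under 0.05 in limma), and 121 (without +/+ replicate 2) to 547 (without Δ/D329A replicate 2). For H3K27me3 (234) they were 38 in ratio to input, 0 with no filter (2309 unadjusted), 399 with the replicate block, and 81 (without Δ/D329A replicate 3) to 454 (without Δ/D329A replicate 2). For H3K36me3 (11) they were 0 with edgeR (383 unadjusted) and in ratio to input (1313 unadjusted), 2 with median centring and with promoters of 1000 bp either side, 6 with no filter, and 2 (without +/+ replicate 1) to 18 (without Δ/D329A replicate 1). Genes of the pathway lists called (0) were 3 with DESeq2 and 1 with edgeR.

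Over the cluster the log2 ratio for H3K4me3 was 0.136 divided by the median and -0.151 to 0.039 without each replicate. For H3K27me3 it was -0.021 in ratio to input and -0.025 to 0.081 without each replicate. For H3K36me3 it was -0.228 divided by the median and -0.003 in ratio to input. Member differences with a changed sign, as log2, were these. With median centring, H3K4me3 was 0.02 at Tuba1a, 0.06 at Tuba1b and 0.03 at Tuba4a, and promoter H3K36me3 -0.04 at Tuba4a. With edgeR, H3K4me3 was 0.04 at Tuba1b and -0.04 at Tuba3b. In ratio to input, H3K4me3 was 0.21 at Tuba1b, H3K27me3 0.04 at Tuba1b, 0.39 at Tuba3b and -0.01 at Tuba4a, and body H3K36me3 0.09 at Tuba3b and -0.15 at Tubal3. With the mitochondrial block, H3K4me3 was 0.03 at Tuba1c, promoter H3K36me3 -0.34 at Tuba4a and body H3K36me3 0.06 at Tuba8. With promoters of 1000 bp either side, H3K36me3 was 0.11 at Tuba1a.

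Without each replicate, H3K4me3 ran from -0.20 to 0.04 at Tuba1a, -0.19 to 0.10 at Tuba1b, -0.28 to 0.36 at Tuba3b and -0.21 to 0.06 at Tuba4a. H3K27me3 ran from -0.73 to 0.04 at Tuba1a, -0.78 to 0.17 at Tuba1b, -0.27 to 0.21 at Tuba3b and -0.19 to 0.28 at Tuba4a. Promoter H3K36me3 ran from -0.75 to 0.25 at Tuba1a and -0.36 to 0.56 at Tuba4a. Body H3K36me3 ran from -0.05 to 0.05 at Tuba3a, -0.27 to 0.11 at Tuba4a, -0.11 to 0.06 at Tuba8 and -0.02 to 0.16 at Tubal3.

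The deviations of samples of the same number had r of -0.0543 to 0.137 for expression and -0.259 to 0.237 for the marks. Whether such samples share more than a number, such as a litter or a batch, was not tested. With the replicate block, 16 genes were called in expression, 264 promoters for H3K4me3, 399 for H3K27me3 (against 234), 9 for H3K36me3 and 0 gene bodies, and the Tuba1c difference was 4.95.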
